A study of Mus musculus with 17 samples.

Results

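The cytosolic ribosomal protein genes encode the proteins of the small and the large subunit of the ribosome that translates nuclear messenger RNAs. They were taken as the protein-coding mm10 genes whose symbol is Rpl or Rps with a number and an optional letter, plus Rplp0, Rplp1, Rplp2 and Rpsa. Symbols of the Rps6k kinases, of pseudogenes and of paralogs that end in l or l1 were left out. The rule found 76 of 21883 protein-coding genes, 46 of the large and 30 of the small subunit. It used gene symbols and no measured value.

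All libraries came from macrophages that C57BL/6 bone marrow gave after 7 days of culture. They were grown in medium conditioned by L929 cells, the source of the macrophage growth factor. The labels call the cells wild type except for STAT6 and the input, where no genotype is given, and do not say how many mice gave each library. Cells were left untreated or received interleukin 4 (IL4, 10 ng/ml), interferon gamma (IFNg, 100 ng/ml) or both at once. STAT6, which signals for the IL4 receptor, was precipitated after 2 h of IL4 and after 2 h of IFNg+IL4. For IRF1 (an interferon-induced factor), JUNB (an AP-1 subunit) and CEBPB (a leucine zipper protein of the myeloid lineage) the libraries were untreated, IFNg 4 h and IFNg+IL4 4 h. MYC had 5 libraries, 1 untreated and 1 each for IL4 and for IFNg+IL4 at 2 h and at 4 h. Each of the 16 ChIP libraries was the only one of its group and 1 untreated whole extract served as input. Without replicates there is no test, no p-value is given, and the values describe these libraries alone. The macrophage genes Csf1r, Spi1 and Cd68 had STAT6 and MYC peaks in IL4-treated cells, while the T cell gene Cd3e and the liver gene Alb had no peak in any of the 16 lists.

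Ribosomal proteins are made in near-equal numbers, and their genes are among the most strongly transcribed in growing cells. Their messenger RNAs start with a run of pyrimidines, the 5′ terminal oligopyrimidine tract, through which the mTOR pathway controls their translation. MYC, which binds DNA with its partner MAX and prefers the sequence CACGTG, the E-box, is known as a driver of ribosome production.

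The promoters that the MYC results turn on are shown first. Each sequence covers 100 bases before and 20 bases from the gene start, is read 5′ to 3′ on the strand of the gene and comes from RefSeq on GRCm38.p6, the build also called mm10. Capitals mark an E-box CACGTG, the ETS-type motif TTCCGG or its reverse complement CCGGAA, and runs of at least 8 pyrimidines between 30 bases before and 20 bases after the start. The first group holds 6 of the 10 members with the strongest MYC peaks in treated cells.
Rpl10a (chr17:28328371-28328490, plus strand): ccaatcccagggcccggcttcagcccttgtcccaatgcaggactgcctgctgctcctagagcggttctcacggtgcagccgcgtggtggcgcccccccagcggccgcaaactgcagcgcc
Rpl12 (chr2:32961612-32961731, plus strand): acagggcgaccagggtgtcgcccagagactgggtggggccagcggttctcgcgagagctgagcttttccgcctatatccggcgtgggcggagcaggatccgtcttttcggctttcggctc
Rpl13 (chr8:123102250-123102369, plus strand): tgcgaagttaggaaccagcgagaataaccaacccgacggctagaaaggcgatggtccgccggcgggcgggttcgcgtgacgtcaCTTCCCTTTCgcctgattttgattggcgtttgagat
Rpl5 (chr5:107900428-107900547, plus strand): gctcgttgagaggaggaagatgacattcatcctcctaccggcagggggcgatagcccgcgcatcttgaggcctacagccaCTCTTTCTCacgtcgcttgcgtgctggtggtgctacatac
Rps7 (chr12:28635934-28636053, minus strand): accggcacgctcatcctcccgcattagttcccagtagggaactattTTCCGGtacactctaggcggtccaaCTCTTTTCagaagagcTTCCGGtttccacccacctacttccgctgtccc
Rpl14 (chr9:120571417-120571536, plus strand): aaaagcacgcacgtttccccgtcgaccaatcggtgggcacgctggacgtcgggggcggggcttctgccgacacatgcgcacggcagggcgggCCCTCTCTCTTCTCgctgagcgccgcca

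The next group holds the 4 members with no listed MYC peak after 2 h of IFNg+IL4.
Rpl15 (chr14:18270967-18271086, minus strand): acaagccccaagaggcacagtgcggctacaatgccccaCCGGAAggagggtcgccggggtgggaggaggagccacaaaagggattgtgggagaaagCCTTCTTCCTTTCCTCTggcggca
Rps21 (chr2:180257279-180257398, plus strand): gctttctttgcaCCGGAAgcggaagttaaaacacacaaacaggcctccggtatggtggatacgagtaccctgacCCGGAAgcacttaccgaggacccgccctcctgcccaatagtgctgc
Rps27 (chr3:90213629-90213748, minus strand): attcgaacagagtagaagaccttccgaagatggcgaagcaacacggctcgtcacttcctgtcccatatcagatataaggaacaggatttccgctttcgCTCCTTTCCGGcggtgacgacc
Rpl24 (chr16:55966175-55966294, plus strand): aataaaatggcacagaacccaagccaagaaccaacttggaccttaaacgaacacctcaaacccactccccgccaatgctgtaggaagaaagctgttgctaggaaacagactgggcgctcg

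The last group holds the members with an E-box inside the printed stretch, which begins at -19 and -3 from the start.
Rpl19 (chr11:98026610-98026729, plus strand): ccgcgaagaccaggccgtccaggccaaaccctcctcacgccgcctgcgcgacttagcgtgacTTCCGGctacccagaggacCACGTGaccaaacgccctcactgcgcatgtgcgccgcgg
Rpl23 (chr11:97782420-97782539, minus strand): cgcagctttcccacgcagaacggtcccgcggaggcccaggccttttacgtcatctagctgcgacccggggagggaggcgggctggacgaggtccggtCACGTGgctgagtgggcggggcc

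Of the 6 promoters with strong MYC peaks, 5 hold no ETS-type motif in these 120 bases, and none holds an E-box. Rps7 is the exception, with 2 copies of TTCCGG. Rplp0 and Rps2, not shown and also among the first 10, hold neither in these 120 bases. Further upstream TTCCGG began at -136 from the start in Rpl14 and at -126 in Rps2, and CACGTG at -168 in Rpl14. These counts therefore hold for the short stretch only. Of the 4 promoters without the peak, Rpl15, Rps21 and Rps27 hold the ETS-type motif.

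Genes were assigned every peak with its summit at most 5 kb outside the gene span, and are called near a peak on that rule. That window grows with gene length, so longer genes have more room for a peak. MYC peaks lay near 45 of the 76 members in untreated cells, which is 59.2% (exact Clopper-Pearson 95% interval from 47.3 to 70.4%, counting error only), against 2.94% of all protein-coding genes. With IL4 every member had a MYC peak at 2 h and at 4 h, where 41.7 and 35.3% of all genes had one. With IFNg+IL4 the peak was listed for 72 members at 2 h and for 76 at 4 h, against 14.5 and 15.7% of genes. Among the strongest 3000 MYC peaks of each treated list, members with a peak numbered 75 and 73 with IL4 and 72 and 76 with IFNg+IL4, beside 15.6, 15.6, 14.4 and 14.2% of genes.

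STAT6 was the other factor with peaks at most members. Its peaks lay near 56 members with IL4 and 52 with IFNg+IL4, which is 73.7 and 68.4% against 37.6 and 33.8% of all genes. The remaining factors were listed near fewer members. IRF1 peaks were near 2 members untreated, 6 with IFNg and 13 with IFNg+IL4, against 1.54, 12.0 and 20.4% of genes. For JUNB the counts were 8, 4 and 1 members, against 16.7, 13.8 and 11.0% of genes. CEBPB peaks were near 5, 23 and 6 members, against 13.6, 34.9 and 14.8% of genes. The input list held 128 peaks and none lay near a member.

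**Figure D1:**
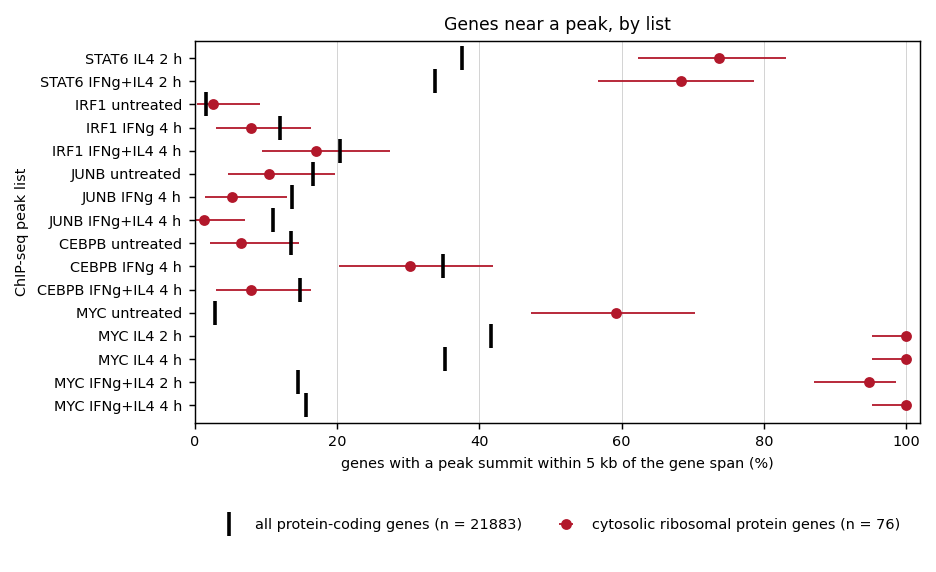
Percent of genes with a peak summit within 5 kb of the gene span (x axis) in each of the 16 ChIP lists (y axis), for the ribosomal protein genes with exact 95% intervals and for all protein-coding genes. The member points stand well to the right of the point for all genes in the 5 MYC lists and the 2 STAT6 lists, and near or left of it in the lists of IRF1, JUNB and CEBPB.

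Every member had a peak in at least 1 list, against 61.3% of genes. For 9 of them (11.8%, exact 95% interval 5.56 to 21.3%, against 7.27% of genes) the peaks were of MYC only, among them Rpl7, Rpl15, Rpl28, Rpl31, Rpl37a, Rps2, Rps10 and Rps21. Peaks of at least 4 factors lay near 9 members as well, against 17.6% of genes, a share inside the same interval. No member had peaks of all 5 (0 of 76, upper limit 4.74%), against 6.77% of genes. The members with at least 4 included Rpl3, Rpl7a, Rpl11, Rpl29, Rplp2, Rps9 and Rps18. All 5 MYC lists held a peak near 45 members and near 613 genes in all, and the 4 lists of treated cells near 72 members and 2365 genes.

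**Figure D2:**
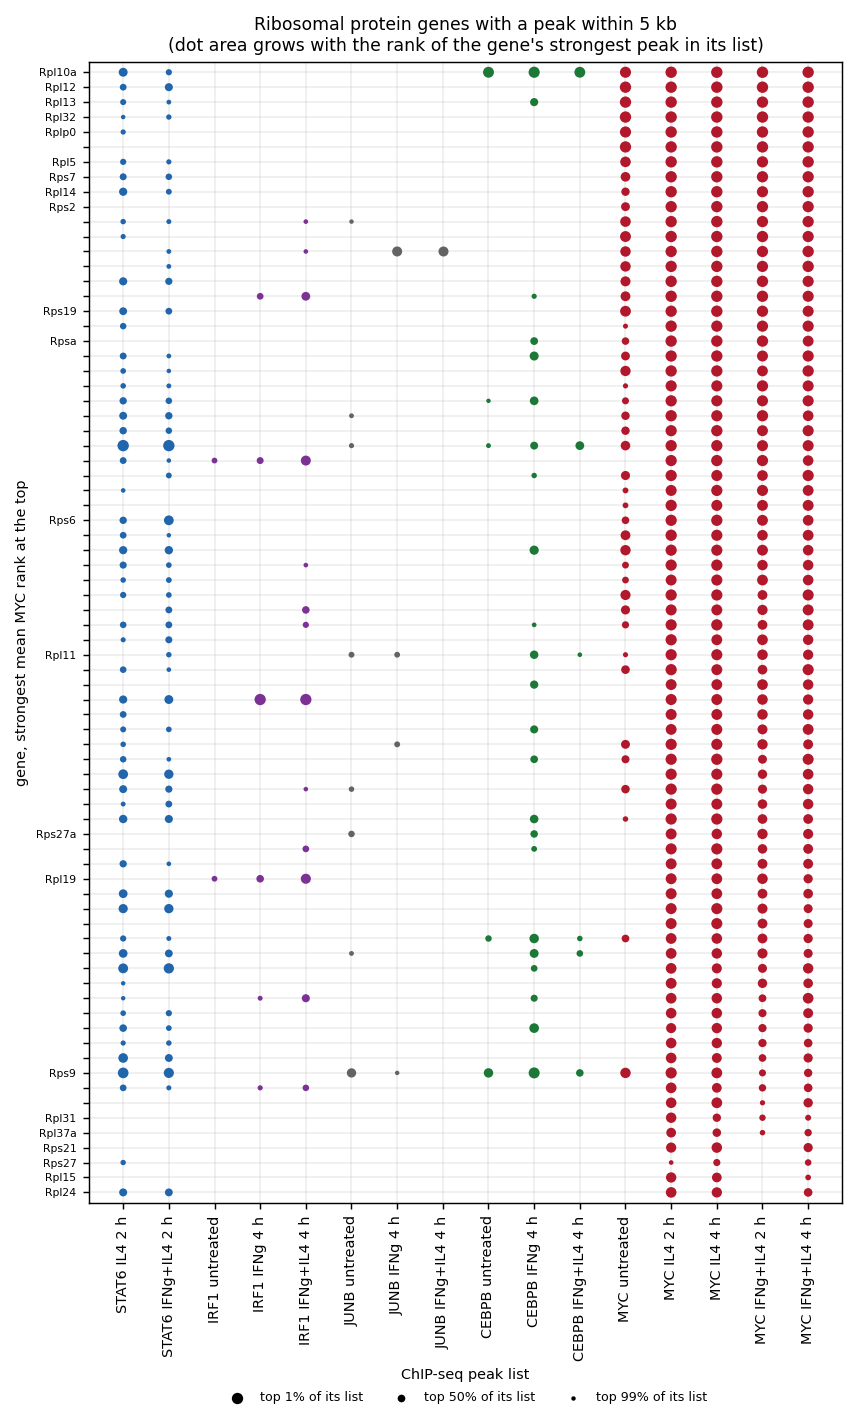
Map of the 76 ribosomal protein genes (rows, ordered by the mean rank of their strongest MYC peak in treated cells) against the 16 ChIP lists (columns), with some rows named. A dot marks a peak within 5 kb and its area grows with the rank of the gene's strongest peak in that list. The MYC columns of IL4-treated cells are filled for all 76 genes, and the untreated MYC column for 45.

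Member peaks made up 53 of the 495 untreated MYC peaks, or 10.7%, and 16 of the strongest 100. The longer lists held more member peaks at a smaller share. With IL4 they were 124 of 13211 peaks at 2 h and 108 of 9645 at 4 h, with 13 and 15 of the strongest 100. With IFNg+IL4 they were 93 of 3034 peaks (3.07%) at 2 h and 112 of 3402 at 4 h, with 21 and 16 of the strongest 100. Among genes with a MYC peak after 2 h of IL4, the untreated list held a peak near 59.2% of members and near 7.06% of all 9120 such genes.

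Members also had stronger peaks than most genes, so the overlap was compared within classes of strength. In the strongest 10% of the IL4 2 h peaks, 45 of 70 member peaks (64.3%, exact 95% interval 51.9 to 75.4%) overlapped an untreated MYC peak, against 377 of 1256 other peaks (30.0%, 27.5 to 32.6%). In the next 10% 0 of 18 member peaks did, against 28 of 1310 others (2.14%). Strength was not equal within the strongest 10%, where the median member peak stood at the top 2.51% and the median other peak at 5.12%. The class was therefore split further, a choice made after seeing the data. In the strongest 1% it was 17 of 17 member peaks and 101 of 116 others (87.1%). From 1 to 5% it was 24 of 31 (77.4%, 58.9 to 90.4%) and 205 of 496 (41.3%, 37.0 to 45.8%), with medians at the top 2.41 and 3.07%. From 5 to 10% it was 4 of 22 (18.2%, 5.19 to 40.3%) and 71 of 644 (11.0%, 8.71 to 13.7%). The intervals stay apart from 1 to 5%, where members still stood somewhat higher, and no difference was detectable from 5% down.

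To compare libraries of different depth, the number of fragments at each summit was recovered from the deposited values and divided by the library's depth, with that of the input as 1. These relative depths were 0.555 for untreated MYC, 0.573 and 0.876 for IL4 at 2 h and 4 h, and 0.329 and 0.368 for IFNg+IL4. For each member the strongest peak was taken. The depth-scaled level had a median of 28.8 over the 45 members listed in untreated cells, with a range from 16.2 to 63.1. After 2 h of IL4 the median over 76 members was 79.4, from 22.7 to 190, and after 4 h it was 55.9. With IFNg+IL4 it was 57.7 over 72 members at 2 h and 55.7 over 76 at 4 h. The level at the members was thus lowest in untreated cells and highest after 2 h of IL4, with the other 3 libraries close together.

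**Figure D3:**
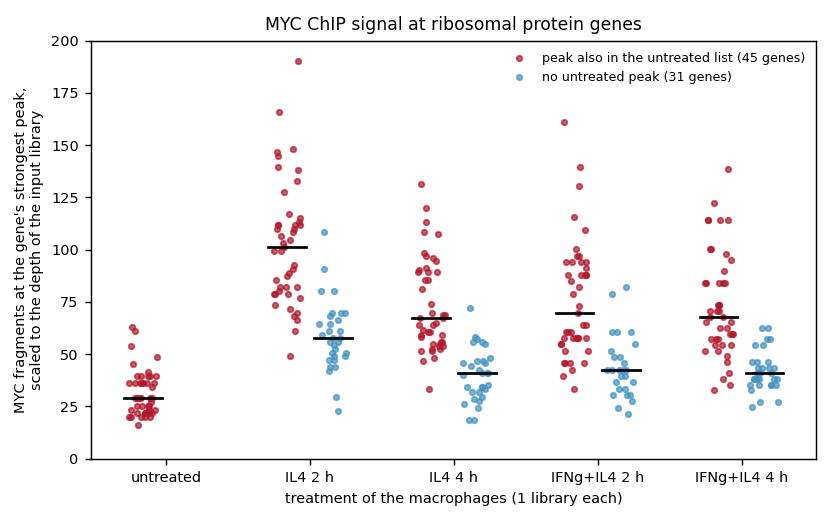
Depth-scaled MYC fragments at the strongest peak of each ribosomal protein gene (y axis) in the 5 MYC libraries (x axis); each point is 1 gene and the colours separate genes with and without an untreated peak, with a black line at each median. The untreated points lie between 16.2 and 63.1 and those after 2 h of IL4 between 22.7 and 190.

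The 45 members listed in untreated cells had the higher levels in the treated cells too. After 2 h of IL4 their median was 101, from 48.9 to 190, and the median of the other 31 members was 57.6, from 22.7 to 108. The ranges of these groups overlap. An untreated level is not listed for the 31. The lowest listed peak of the untreated library had 8 fragments, a scaled 14.4, so a level under that could not be seen. The subunits differed little: 27 of 46 large-subunit and 18 of 30 small-subunit members were listed untreated (58.7 and 60.0%), and their median levels after 2 h of IL4 were 77.7 and 80.3.

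At all 45 members with overlapping peaks the IL4 2 h level was higher than the untreated one. The median ratio was 3.31, from 2.25 for Rpl12 to 5.37 for Rpl21. Over all 53 overlapping member peaks the median was 3.43 and over all 495 untreated MYC peaks 3.35, so the members were close to the whole list. Divided by the median of all peaks, the members' ratio was 1.02. In the lists, all 31 members without an untreated peak gained one with IL4. Of all 21883 genes 8476 gained one (38.7%), and 644 already had one. No member lost one (0.00% of genes).

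From 2 h to 4 h of IL4 none of the 76 members lost its peak, against 1772 of the 9120 genes with one (8.10% of all genes). As every member had a peak at 2 h, none could gain one, while 1.68% of genes did. The level was lower at 4 h for each of the 73 members whose strongest peaks overlapped. The median ratio was 0.704, from 0.533 for Rps15a to 0.895 for Rpl35a. All overlapping peaks of these lists had the same median, 0.704. Over those from the strongest 10% of the IL4 2 h list it was lower, 0.654.

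With IFNg added for 2 h, 4 of the 76 members lost the listed peak, against 5969 of the 9120 genes with one (27.3% of all genes). The 4 members were Rpl15, Rpl24, Rps21 and Rps27. No member could gain a peak, while 0.0960% of genes did. The level with IFNg+IL4 was above that with IL4 alone at 3 of the 69 members whose strongest peaks overlapped, with a median ratio of 0.737. The lowest was Rpl29 at 0.467 and the highest Rpl9 at 1.05. Over all overlapping peaks the median was 0.746, close to that of the members. However, 64 of the 76 members had their strongest IL4 2 h peak in the strongest 10% of that list. Over the overlapping peaks of that strongest 10%, member peaks included, the median was 0.636, with quartiles of 0.532 and 0.752. The members were thus close to the whole list and above the median of its strongest peaks.

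After 4 h the members' levels with and without IFNg had close medians. None of the 76 members lost its peak, against 4356 of the 7715 genes with one (19.9% of all genes). All had a peak with IL4, so none could gain one, while 0.352% of genes did. The ratio of IFNg+IL4 to IL4 had a median of 1.01 over 71 members and was above 1 for 36 of them, from 0.666 for Rpsa to 1.59 for Rpl10. The median of all overlapping peaks was 1.04, and that of those from the strongest 10% of the IL4 4 h list was 0.906. From 2 h to 4 h of IFNg+IL4 the 4 members named above gained a peak, as did 4.87% of all genes. None of the 72 members with a peak lost it, against 802 of 3172 genes (3.66% of all genes). The median ratio was 0.956 over 67 members.

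**Figure D4:**
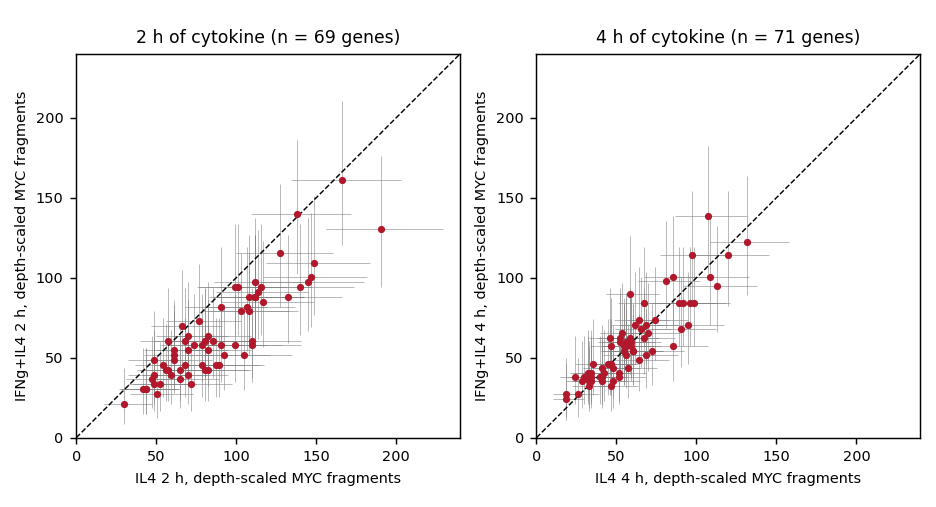
Depth-scaled MYC fragments with IL4 alone (x axis) against IFNg+IL4 (y axis) at 2 h and 4 h; each point is 1 ribosomal protein gene with overlapping strongest peaks, the grey bars are exact Poisson 95% intervals and the dashed line marks equal levels. At 2 h 3 of 69 points lie above the line, and at 4 h 36 of 71 lie above it.

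In single peaks, 82 of the 124 member peaks of IL4 2 h (66.1%) overlapped a peak of IFNg+IL4 2 h, against 21.7% of all peaks near a gene. At 4 h it was 90 of 108 (83.3%) against 31.2%. Within classes of strength the differences were smaller at 2 h. In the strongest 10% of the 2 h list 69 of 70 member peaks (98.6%, 92.3 to 100%) and 1113 of 1256 others (88.6%, 86.7 to 90.3%) overlapped one. Split as above, the strongest 1% gave 17 of 17 and 116 of 116, and from 1 to 5% it was 31 of 31 and 478 of 496. From 5 to 10% it was 21 of 22 (77.2 to 99.9%) and 519 of 644 (80.6%, 77.3 to 83.6%). The intervals overlapped in each of these finer classes. In the next 10% it was 10 of 18 (55.6%) and 665 of 1310 (50.8%). Among the weaker peaks, outside the classes used above, it was 3 of 36 and 886 of 10521, or 8.33 and 8.42%. At 4 h the strongest 10% gave 63 of 63 member peaks (94.3 to 100%) and 872 of 916 others (95.2%, 93.6 to 96.5%). For the weaker peaks at 4 h the intervals do not overlap, with 13 of 29 (44.8%, 26.4 to 64.3%) near members and 1340 of 7687 (17.4%, 16.6 to 18.3%) elsewhere, at median positions of the top 48.6 and 60.03%.

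The order of the members was set by the mean rank of the strongest peak over the 4 treated MYC lists. Rpl10a, a large-subunit protein at the exit site for transfer RNA, came first. Its peak after 2 h of IL4 covered chr17:28328008-28329285 with the summit 107 bp downstream of the start. The fragments at its summit were 23 untreated, 95 and 115 with IL4 at 2 h and 4 h, and 53 and 45 with IFNg+IL4. Depth-scaled, these were 41.5 (exact Poisson 95% interval 26.3 to 62.2), 166 (134 to 203), 131 (108 to 158), 161 (121 to 211) and 122 (89.1 to 164). The untreated interval lay below the other 4, and those 4 overlapped one another.

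Rpl12, a protein of the base of the ribosomal stalk, followed with 34, 79, 94, 46 and 51 fragments in the same order of libraries. Its untreated level of 61.3 was among the highest of all members. Rpl32 had the highest level of any member in both untreated cells and after 2 h of IL4, 63.1 and 190 from 35 and 109 fragments. In the other treated libraries it had 99, 43 and 35 fragments in the order IL4 4 h, IFNg+IL4 2 h and IFNg+IL4 4 h. Rplp0, which anchors the stalk that recruits elongation factors, had 25, 85, 95, 36 and 37 fragments. The stalk proteins that it carries were lower after 2 h of IL4: Rplp1 had 44 fragments and Rplp2 had 37, and only Rplp1 of these was listed untreated, with 9.

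Others of the first 10 also had a peak in every MYC list. Rpl13, of the large subunit, had 27, 76, 85, 29 and 42 fragments. Rps7, of the small subunit, had 22, 83, 75, 32 and 37. Both had their highest depth-scaled level after 2 h of IL4, at 133 and 145. Rpl14 had 15, 64, 80, 29 and 31 fragments and Rps2, which lies by the messenger RNA entry, 16, 66, 78, 31 and 31. Within these 10, neighbours in the order do not differ beyond their counting intervals in any MYC library.

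Rpl5 and Rpl11 bind 5S ribosomal RNA together and, when ribosome assembly fails, the p53 regulator MDM2. They stood apart in MYC level. Rpl5 had 20, 84, 105, 33 and 42 fragments, and Rpl11 had 11, 47, 53, 18 and 20. Rpl5 was higher than Rpl11 in every MYC library, with counting intervals that did not overlap with IL4 at 2 h and 4 h and overlapped in the other 3.

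Rps6, the target of S6 kinase, had 11, 40, 48, 21 and 20 fragments, a level of 69.8 after 2 h of IL4 against the members' median of 79.4. Rps19, the gene most often mutated in Diamond-Blackfan anaemia, had 22, 58, 79, 31 and 25. Rpsa, also known as the laminin receptor, had 14, 64, 75, 32 and 21. All 3 were listed in untreated cells, unlike Rps27a, which is made as a fusion with ubiquitin and had no untreated peak and then 35, 31, 17 and 17 fragments. Rpl13a, known from the complex that silences translation of inflammatory messenger RNAs in IFNg-treated monocytes, had a peak in each of the 5 lists, but its strongest one could not be given to it alone and its values are left out.

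At the other end, Rps27 had 13 and 16 fragments with IL4, none listed after 2 h of IFNg+IL4, and 10 after 4 h. Its depth-scaled level after 2 h of IL4 was 22.7 (exact Poisson 95% interval 12.1 to 38.8), below the interval of Rpl10a. Rpl37a had 17, 16, 7 and 9 fragments in the 4 treated libraries and Rpl31 had 24, 23, 10 and 10. Rps21 had 38 and 36 with IL4 and 14 after 4 h of IFNg+IL4. Rpl15 had 27, 29 and 13 in these 3 libraries. Rpl24 had 29, 24 and 13, but not all at the same site, with summits 7285, 364 and 7281 bp downstream of its start. None of these 6 was listed untreated. Of the 4 members without an IFNg+IL4 2 h peak, Rps21 had the highest IL4 2 h level, 66.3, and the relative depth of the library without the peak was 0.329, the lowest of the 16.

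The remaining members with an untreated peak lay between these ends. Their untreated fragments ran from 9 for Rplp1 to 22 for Rps25. They include Rps3 at the messenger RNA entry with 20 fragments and Rps9, Rps24 and Rpl4, each with 20 as well. Rpl36 had 19, and Rpl8, Rpl17, Rpl23, Rpl30 and Rpl35 had 16 each. Rpl23a and Rps15a had 14, as did Rps18. The lower ones with 11 to 13 were Rpl7a, Rpl18, Rpl21, Rpl27a, Rpl29, Rpl35a, Rpl37, Rpl38, Rps10, Rps12, Rps16 and Rps23. Each of them had a higher depth-scaled level after 2 h of IL4.

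The 31 members without an untreated peak held some strong ones. Rps26 had 62, 51, 26 and 23 fragments in the 4 treated libraries (IL4 at 2 h and 4 h, then IFNg+IL4 at 2 h and 4 h), a level of 108 after 2 h of IL4. Rpl22 had 52, 63, 27 and 20. Rps28 had 46, 49, 20 and 21. These lay within the range of the members that were listed untreated.

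Most of the 31 were lower. Rps14, known from the 5q- syndrome, had 31, 36, 15 and 13 fragments. Rpl3, which lies at the peptidyl transferase centre, had 35, 36, 16 and 16. The X-linked members Rpl10, Rpl36a, Rpl39 and Rps4x had 25, 29, 28 and 33 after 2 h of IL4, and none of the 4 was listed untreated. Rpl41, which encodes the shortest protein of the ribosome, had 27 in that library.

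A start position was at hand for 56 members. MYC summits lay within 1 kb of the start for 31 of them untreated, 55 with IL4 at 2 h and at 4 h, and 51 and 55 with IFNg+IL4. Of all genes with a start, 2.04, 32.3, 27.0, 10.4 and 11.1% had one. The strongest MYC summit lay a median of 154 bp downstream of the start after 2 h of IL4. It was within 500 bp for 48 members and on the downstream side for 42 of these. Over all genes the median was 35 bp, and 42.2% of the summits within 500 bp lay downstream. The medians of the members in the other libraries were 168 bp untreated, 151.5 bp with IL4 at 4 h, and 144 and 132 bp with IFNg+IL4. Of the 8 members with a strongest IL4 2 h summit beyond 500 bp, Rpl38, Rps4x and Rpl10 had it at 528, 547 and 624 bp. It lay at 1474 bp for Rpl22, at 4146 bp for Rpl13a, at 4170 bp for Rps18, at 7285 bp for Rpl24 and at -4118 bp, upstream, for Rpl28.

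**Figure D5:**
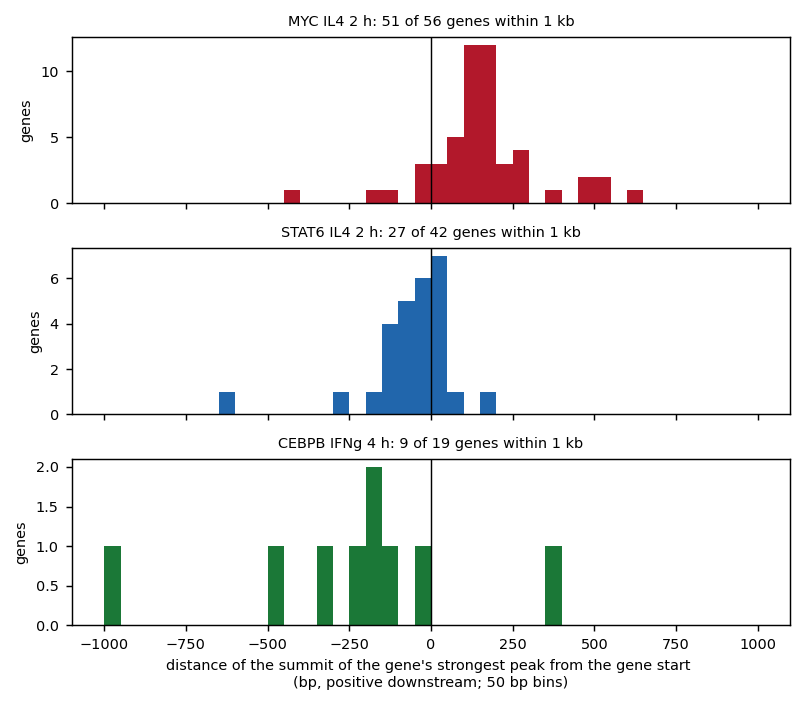
Distance in bp from the gene start to the summit of the gene's strongest peak (x axis, positive downstream, 50 bp bins) for the ribosomal protein genes with a start (y axis, number of genes). Bars cover summits within 1 kb only, while the medians cover all. MYC summits pile up downstream of the start, with a median of 154 bp after 2 h of IL4. STAT6 summits within 1 kb lie around the start itself. Over the 42 members with a start and a STAT6 peak with IL4, the median was -8.5 bp and the quartiles were -91 and 1023.5 bp. Of these summits, 26 lay within 500 bp.

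Peaks can belong to a neighbouring gene. The strongest IL4 2 h MYC peak of 10 members lay within 1 kb of the start of another gene, and that of 48 members was within 5 kb of another gene's span. Without peaks at another gene's start the median ratios of all 5 MYC pairs stayed within the spread of the main values. The treatment of reads that match several places is not stated in the sources used here, and ribosomal protein genes have many processed copies in the genome.

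STAT6 peaks at the members were common and weak. The 80 member peaks of the IL4 list had a median position at the top 63.2% by strength, and only 2 members, against 6.81% of genes, were near the strongest 3000 peaks. With IFNg+IL4 it was 1 member against 6.69% of genes. The strongest was at Rps18, at the top 0.0682% of the list with IL4 and 0.559% with IFNg+IL4, but its summit lay 8117 bp downstream of the Rps18 start. Rps9 had 111 fragments with IL4 and 66 with IFNg+IL4, 3185 and 3201 bp downstream of its start.

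Of the others among the strongest, Rps15, a small-subunit protein, had 54 and 50 fragments at the start itself, 11 and 36 bp downstream. Rpl10, an X-linked large-subunit gene, had 57 and 63 fragments, at -602 and -601 bp, upstream of the start. Rpl36a had 41 and 20, at -1978 and -2017 bp. Rps6 had 25 and 41 fragments more than 5 kb downstream of its start, at the top 53.6% of the IL4 list and 22.2% of the IFNg+IL4 list. Among the members with strong MYC peaks, STAT6 had 43 and 29 fragments at Rpl10a, 28 and 22 at Rpl5, and 21 at Rplp0 with IL4 only. Rpl12 had 24 in each library, but at separate sites, 5357 and -68 bp from its start. The relative depths of the 2 STAT6 libraries were close, 1.135 and 1.08.

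At the starts the picture was more even. STAT6 summits lay within 1 kb of the start for 37 of 56 members with IL4 and 34 with IFNg+IL4 (17.2 and 14.6% of genes). The strongest summit lay at a median of -8.5 bp from the start with IL4 and 5 bp with IFNg+IL4. It was within 500 bp for 26 of 42 members with IL4 and 27 of 39 with IFNg+IL4. Of the member peaks in the IL4 list, 65 of 80 overlapped a MYC peak of IL4 2 h (81.3%), against 26.3% of all STAT6 peaks near a gene. At gene starts it was 39 of 39 against 62.1%. Among genes with a MYC summit at the start, 67.3% of members and 40.1% of all genes had STAT6 there too. With IFNg+IL4 these were 66.7 and 40.03%.

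STAT6 listing changed little with IFNg. Of the 56 members with a peak with IL4, 9 lost it, against 1586 of 8237 genes (7.25% of all genes). The 9 were Rpl21, Rpl23a, Rpl35a, Rpl36, Rplp0, Rplp2, Rps4x, Rps27 and Rps28. The 5 members that gained a peak (3.41% of all genes) included Rpl11, Rpl13a, Rpl30 and Rpl35. In single peaks 62 of 80 (77.5%, exact 95% interval 66.8 to 86.1%) overlapped an IFNg+IL4 peak, against 68.7% of all peaks. The depth-scaled ratio of IFNg+IL4 to IL4 had a median of 0.870 over 61 member peaks and 0.831 over all.

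CEBPB followed the treatment at the members as it did elsewhere. With IFNg 18 members gained a peak and 0 lost one (21.4 and 0.00457% of all genes). With IL4 added to IFNg 17 of the 23 members with a peak lost it, as did 4435 of the 7647 genes with one. As shares of all genes, losses were 20.3% and gains 0.0914%, with 0 members gaining one. Rpl10a, first for MYC, was also first for CEBPB, with its summit at -234 bp from the start after IFNg. It had 196 fragments with IFNg and 89 with IFNg+IL4, a depth-scaled 147 (127 to 169) and 67.8 (54.5 to 83.4), intervals that do not overlap. In untreated cells it stood at the top 6.55% of the list.

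The relative depths of the 3 CEBPB libraries were 1.45 untreated, 1.33 with IFNg and 1.31 with IFNg+IL4. Rps9 had 69, 177 and 31 fragments in that order at a site about 6 kb downstream of its start, a depth-scaled 47.4, 133 and 23.6. Rps16 had 28, 57 and 19 upstream of its start, a depth-scaled 19.2, 42.8 and 14.5. Both were highest with IFNg. Rpl41, Rps24 and Rps23 were listed with IFNg only, with 70, 64 and 60 fragments. At the 4 member peaks with both values the ratio of IFNg to untreated had a median of 2.46, against 2.47 over all peaks. For IFNg+IL4 over IFNg it was 0.441 over 6 member peaks and 0.363 over all. Of the 28 member peaks with IFNg, 14 overlapped a MYC peak of IL4 4 h (50%), against 10.2% of all CEBPB peaks near a gene, though the treatments differ. All 76 members had a peak in that MYC list, against 35.3% of all genes, and the overlap was not compared at equal MYC listing. CEBPB summits lay within 1 kb of the start for 10 of the 56 members with IFNg, against 9.70% of genes.

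IRF1 peaks were few, and the relative depths of the 3 libraries were far apart, 1.54 untreated, 0.446 with IFNg and 0.929 with IFNg+IL4. Rpl27 had the strongest, 63 fragments with IFNg and 97 with IFNg+IL4, but 6.2 kb downstream of its start. Its depth-scaled levels were 141 (exact Poisson 95% interval 109 to 181) and 104 (84.7 to 127), in the opposite order to the fragments and with intervals that overlap. Rpl19, a protein of a bridge between the subunits, was listed in all 3 libraries with 63, 24 and 63 fragments, 144 bp downstream of the start in untreated cells. Depth-scaled this was 40.9 (31.5 to 52.4), 53.8 (34.5 to 80.1) and 67.8 (52.1 to 86.7). Rpl22 was too, with 63, 20 and 57 fragments 1173 bp downstream, a depth-scaled 40.9, 44.8 and 61.3. These were the only members listed untreated. Of the 14 member peaks with IFNg+IL4, 6 overlapped a MYC peak of the same treatment and time (42.9%), against 7.59% of all IRF1 peaks near a gene. All 76 members had a peak in that MYC list, against 15.7% of all genes, and the overlap was not compared at equal MYC listing. With IFNg and IFNg+IL4 Rplp2 had 12 and 28 fragments, and Rps20 had 13 and 21. Depth-scaled they were 26.9 and 30.1 for Rplp2, and 29.1 and 22.6 for Rps20. The share of members was below that of all genes in both treated lists, but the exact 95% intervals of the members, 2.95 to 16.4% and 9.43 to 27.5%, include it.

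JUNB peaks near members were few. Relative depths were 1.55 untreated and 1.01 with IFNg. Rps9 had 31 fragments untreated and 18 with IFNg at separate sites, a depth-scaled 20.04 and 17.9. Rpl11 had 15 and 22 in the same libraries, at -2822 and -2849 bp from its start, a depth-scaled 9.70 and 21.8 with exact Poisson intervals that overlap. Rps27a had 20 untreated, and Rpl23a had 17 with IFNg. The members' shares with IFNg (5.26%, exact 95% interval 1.45 to 12.9%) and with IFNg+IL4 (1.32%, 0.0333 to 7.11%) had intervals below the shares of all genes. Within 1 kb of the start 0 of 56 members had a JUNB peak in either list, against 1.54 and 1.22% of genes. At shares this low 56 members cannot show a lower one. The untreated list had been thresholded on p, and at the −log10 q of 2 that the other lists met, 1 member remained in place of 8. The share of all genes was not counted at that setting, so the drop cannot be told apart from a shorter list.

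Letters in the promoters were counted over 250 bases before to 50 bases after the start, on both strands, in the 56 members and in all 17491 genes with an entry. The E-box CACGTG was in 5 members (8.93%) and in 7.91% of all promoters. It began at -200 from the start in Rpl13a, at -168 in Rpl14, at -155 in Rpl34, at -19 in Rpl19 and at -3 in Rpl23. The variants CACGCG and CATGTG were in 9 and 7 members (16.1 and 12.5%) and in 12.2 and 11.5% of all promoters. The members' shares were thus close to those of all promoters.

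Other letters were commoner in the members. TTCCGG, the core of ETS factor sites, was in 28 members (50%) and in 19.1% of all promoters. A run of at least 8 pyrimidines close to the start was in 27 members (48.2%) and in 19.4%. The median number of CG pairs in the 300 bases was 21 in members and 13 in all, at a GC content of 57.5 and 56.3%. The interferon-type motif of GAAA, any 2 bases and GAAA was in 7 members (12.5%) and 3.40% of all promoters: Rpl4, Rpl5, Rpl27a, Rpl38, Rps7, Rps19 and Rps23. All 7 were among the 32 with an untreated MYC peak and none among the other 24, and none of the 7 had an IRF1 peak. Such splits were made for all 10 motifs and the pyrimidine run, the groups were small, and none was tested.

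The pyrimidine run was in 19 of the 32 promoters with an untreated MYC peak (59.4%) and in 8 of the 24 without (33.3%). TTCCGG was in 15 and 13 of these, or 46.9 and 54.2%. The STAT-type motif of TTC, any 4 bases and GAA was in 5 members (8.93%) and 6.38% of promoters. TGACTCA, the AP-1 site, was in Rpl9 alone (1.79%) and in 4.56% of promoters. GCGCATGC was in 2 (3.57%) against 3.60%. TTGCGCAA and TGATGCAA, letters of CEBP-type sites, were in no member and in 0.217 and 0.903% of promoters.

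Related gene groups, listed with earlier results of these data known, place the members. The 4 cytosolic ribosomal proteins whose symbols the rule leaves out, such as Rps3a1, Fau and Rack1, had a MYC peak in 2 cases untreated and in 4 in each treated list. Of 30 nucleolar genes of ribosome assembly 14 were listed untreated, 30 with IL4 at both times, and 25 and 30 with IFNg+IL4. Of 14 genes of elongation and of other messenger RNAs with pyrimidine tracts, such as Eef1a1, Eef2 and Tpt1, it was 6, 14, 14, 12 and 11. These groups had untreated shares of 46.7% (exact 95% interval 28.3 to 65.7%) and 42.9% (17.7 to 71.1%), both overlapping the interval of the members.

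The proteins of the mitochondrial ribosome stood apart. Of 78 such genes 6 had an untreated MYC peak, 67 and 58 one with IL4, and 26 and 32 one with IFNg+IL4. The untreated share of 7.69% (2.88 to 15.99%) and the IFNg+IL4 2 h share of 33.3% (23.1 to 44.9%) had intervals below those of the members. Their median depth-scaled level after 2 h of IL4 was 34.9 against 79.4 for the members, 82.9 for the nucleolar genes, 76.8 for the elongation group and 31.4 for all genes with a peak. Of 6 paralogs of ribosomal proteins that could be matched, none was listed untreated. Rpl7l1, Rpl22l1 and Rps27l were listed in all 4 treated libraries, and Rpl3l, Rpl10l and Rpl39l in none.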

How the data were processed

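Each of the 16 ChIP-seq libraries and the input came from 1 sample, and each peak list from 1 library. Bowtie2 2.2.6 aligned the reads and MACS2 2.1.0.20150731 made the lists on mm10/GRCm38, per the submitters' processing notes. Neither the control nor the settings of these tools are stated in what was used here. For every peak the authors' lists give a fold, the ratio of summit signal to background. They also give, from the authors' peak caller, a −log10 p and a −log10 q. A further column deposited by the authors is a score of 10 times the −log10 q (10 times the −log10 p in untreated JUNB).

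Peaks on chromosomes 1 to 19, X and Y that overlapped no input peak were used. The deposited fold and −log10 p of a peak together fix its fragment number, its background and the depth of its library relative to the input. This assumes the same input for every list and a linear scaling. Solutions matched the deposited values within 0.005 on the log10 scale for 92.9 to 100% of the peaks solved (those with −log10 p up to 250). Relative depths ran from 0.329 to 1.55.

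Gene spans, starts and promoters came from RefSeq on GRCm38.p6. A summit within 5 kb of the span counted as near, and an overlap of 1 bp as shared. Shares have exact Clopper-Pearson and fragment numbers exact Poisson 95% intervals, which cover counting error only. Alternatives changed the window (1 kb of the start, 20 kb), the −log10 q (5), the list length (3000), the overlap (reciprocal 50%), the input filter, the assignment, the member list and the depth. Scripts were tested on simulated data and run with Python 3.11.15, numpy 2.4.6, scipy 1.17.1 and pandas 2.3.3.

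Members and gene lists were chosen with earlier results of these data known. Some genes are not reported by name here. Genes described in full were otherwise the first 10 by mean MYC rank in treated cells, members with an untreated MYC peak, up to 6 per other factor by rank, and 8 set members (Rps6, Rpl11, Rpl5, Rps19, Rpl13a, Rplp0, Rpsa, Rps27a).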

Additional observations from a re-analysis of the deposited data

How the results depend on the processing

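No paired analysis was possible because each group was 1 library with no replicate number, and for the same reason no library could be left out. For each setting, values not printed stayed within 1.5 times the main one, or a share kept within its 95% interval. Within 1 kb of the start they were 1.79 and 3.57% of members for IRF1 (IFNg, IFNg+IL4), 1.79, 0 and 0% for JUNB (untreated, IFNg, IFNg+IL4), and 3.57, 17.9 and 1.79% for CEBPB. Of all genes with a start, in the same order, it was 3.08 and 5.93%, 2.88, 1.54 and 1.22%, and 2.57, 9.70 and 3.10%. Within 20 kb the members' shares were 19.7 and 35.5%, 26.3, 11.8 and 6.58%, and 18.4, 48.7 and 19.7%. By nearest start IRF1 gave 3.57 and 7.14%, and JUNB 5.36% untreated and 0% with IFNg+IL4. Among the strongest 3000 peaks STAT6 gave 2.63 and 1.32%, IRF1 with IFNg+IL4 5.26%, JUNB 1.32% untreated and with IFNg, and CEBPB 2.63% in each list. Of all genes, in the same order, it was 6.81 and 6.69%, 9.02%, 6.52 and 6.64%, and 8.17, 8.19 and 8.25%. Untreated JUNB was 1.32% at a −log10 q of 5, and at 2, a setting chosen after seeing the data. Shares of all genes were not counted within 20 kb, by nearest start or at these −log10 q. The MYC shares moved under no setting. Within 1 kb, STAT6 gains were 3, CEBPB gains with IFNg 8 and CEBPB losses 9.

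Shares of member peaks kept in another list depended on the overlap. At reciprocal 50% they were 76.1% for STAT6 IFNg+IL4 in IL4. For MYC they were 7.55% for untreated in IL4 2 h, 3.23% the other way, 73.4% for IL4 2 h in 4 h, 84.3% the other way, 41.9% for IL4 in IFNg+IL4 at 2 h, 55.9% the other way, 50.9% at 4 h, 49.1% the other way, and 83.9% for IFNg+IL4 2 h in 4 h. With both lists cut to the shorter, CEBPB gave 40% for untreated in IFNg, 66.7% the other way, 75% for IFNg in IFNg+IL4 and 50% the other way. MYC gave 90.6% for untreated in IL4 2 h, 90.9% the other way, 90% for IL4 2 h in 4 h, 88.9% for IL4 in IFNg+IL4 at 2 h, 95.5% at 4 h and 93.8% the other way. Within 1 kb, IL4 2 h peaks were kept at 48.4% in untreated, 93.8% in IL4 4 h and 79.7% in IFNg+IL4 2 h. IL4 4 h peaks were kept at 100% in IL4 2 h and 95% in IFNg+IL4 4 h, with 100% the other way. Thinned to the shallower library, IL4 4 h peaks were kept at 91.6% in IFNg+IL4 4 h, and 1 member gained a peak in place of 0. Thinning gave no value for STAT6 and CEBPB, whose libraries were all deeper than the input. Divided by the median of all peaks, a setting added after seeing the data, the ratio of IL4 2 h to untreated was 1.02 in place of 3.43. The cause of the other moves was not tested. Depth limits the absence of a peak: the lowest listed peak held 8 fragments in untreated MYC and 5 in both IFNg+IL4 libraries.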
